A study of Mus musculus with 10 samples.

Results

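The changes with all-trans retinoic acid (ATRA) that were common to the PD and TD subsets of murine acute promyelocytic leukaemia (APL) were examined on 8 of the 10 expression arrays of the series: 4 of treated cells (RAPD and RATD, 2 each) against 4 of untreated cells (UNPD and UNTD, 2 each). The arrays were chosen by their titles alone, and no measured value entered the choice. The cells came from FVB N/J mice aged 8 to 10 weeks, in which PML-RARα leukaemia had arisen spontaneously. In every group they carried GFP from a retrovirus and had been expanded by transplantation into syngeneic recipients, and GFP-positive bone marrow cells were then sorted by flow cytometry into subsets that the labels call SC, PD and TD without spelling the names out. The treated groups received ATRA at 10 mg/kg, for 5 days according to the treatment protocol and for 3 to 5 days according to the source names, and the untreated groups received none. The labels call the 2 arrays of a group biological replicates and do not say how many recipients gave one sample. The remaining pair of arrays, untreated SC cells, entered only the estimate of the spread, which was pooled over all 10 arrays. A level below is the log2 of the MAS5 signal, the brightness of the array's probe set for a gene, given for replicates 1 and 2 in that order. A difference is treated minus untreated on the same log2 scale, over 4 treated and 4 untreated arrays or, within a subset, over 2 and 2. The value after ± is its standard error, which rests on the spread pooled over all 10 arrays.

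ATRA is a ligand of the retinoic acid receptors, which bind as partners of the RXR proteins to response elements in DNA and switch from repressing to activating their targets when the ligand is bound. In APL the fusion of PML with RARα holds such targets in check and blocks the cells at the promyelocyte stage, and pharmacological ATRA lifts the block. A maturing neutrophil makes its granules in sequence: primary granules with myeloperoxidase and elastase in promyelocytes, secondary granules with lactoferrin next, and tertiary granules with gelatinase last, while surface receptors and the oxidase of the mature cell appear towards the end.

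The arrays did not separate by treatment as a whole. Among 6329 bright genes, those averaging 9 or more in log2 signal, gene-wise differences between RATD replicate 1 and the UNTD arrays had SDs of 0.312 and 0.309, while those between RATD replicate 1 and RATD replicate 2 had an SD of 0.467. RATD replicate 1 was thus nearer to the untreated arrays of its subset than to the other treated one. RAPD replicate 1 was nearer to RATD replicate 2 (0.450) than to RAPD replicate 2 (0.503). The 75th percentile of log2 signal was 8.28 and 8.35 on the UNPD arrays and 8.41 on RAPD replicate 2, and between 8.60 and 8.78 on the others. Calls were therefore also counted with each array left out. For the gene lists described below, the counts that moved by more than 1.5 times are given beside the result. The shares of all genes printed beside list counts are those of the fit to all arrays. The number of calls over all genes also changed strongly with the array left out. A list count that moved in the same direction is therefore no result about that list. Of the markers of the labelled cells, those of promyelocytes and progenitors (Mpo, Elane, Prtn3, Ctsg, Ms4a3, Kit, Cd34 and Myb) summed to linear signals of 192407 to 198808 in UNPD, 161419 to 199915 in RAPD, 85569 to 115359 in UNTD and 116293 to 116342 in RATD.

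To find the shared response, the ATRA difference was averaged over the PD and TD subsets with equal weight for each of 14581 genes and tested with limma (two-sided, Benjamini-Hochberg over all genes), with calls made where the adjusted p was below 0.05. The averaged difference was called for 784 genes (5.38%), of which 449 (3.08%) rose and 335 (2.3%) fell. A gene is said to have moved the same way when it was called and, in PD and in TD separately, both treated arrays lay above both untreated ones, or both below. This held for 326 genes that rose (2.24% of all tested) and 245 that fell (1.68%). Among these, 109 rose (0.748%) and 73 fell (0.501%) by at least 1 log2 unit in each subset. Without regard to the test, arrays lay apart in the same direction in both subsets for 959 genes upwards (6.58%) and 981 downwards (6.73%), and in opposite directions for 1182 genes (8.11%). In these sorted but bulk samples, fewer cells of a type and less RNA per cell cannot be told apart.

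The counts depended on single arrays. Without UNPD replicate 1 or 2 the averaged difference was called for 175 or 287 genes, without RAPD replicate 1 or 2 for 399 or 1817, without UNTD replicate 1 or 2 for 154 or 185, and without RATD replicate 1 or 2 for 2155 or 371. The genes that moved the same way numbered 153, 216, 328, 795, 138, 170, 1943 and 301 in the same order. Without the intensity trend in limma, 15 genes were called and 13 moved the same way, and an additive model on the 8 arrays gave 119 and 119. A core of 97 genes, 66 that rose and 31 that fell, moved the same way in the fit to all arrays and in each of the 8 fits with an array left out, which is 17.0% of the 571. The core was defined after the values had been seen. Of the genes named below it holds, among those that rose, Cyp26a1, Pram1, Dapk2, Ltf, Pglyrp1, Fcnb, Olfm4, Ceacam10, Mmp8, Mmp9, Stfa2l1, Chil1, Ltb4r1, Padi4, AA467197, Adtrp, Map3k9, Rasl11b, Rflnb, Serpina11, Slc2a3, Tmem45a2, Cnmd, Ipcef1, G0s2, Il1rn, Cxcr2, C5ar1, Lrg1, Ncf4, Fcgr4, Cdkn1c, Cdkn2d, Ifitm6, Vcam1 and Slc40a1. Among those that fell it holds Ifitm1, Ifitm3, Clec4d, Clec4e, Fut7, Calhm6, Jun, Fos, Dusp1, Cdkn1a, Il17ra, Tnfrsf1b, Cx3cr1, Ccl3, Gm49249 and Igll1.

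**Figure D1:**
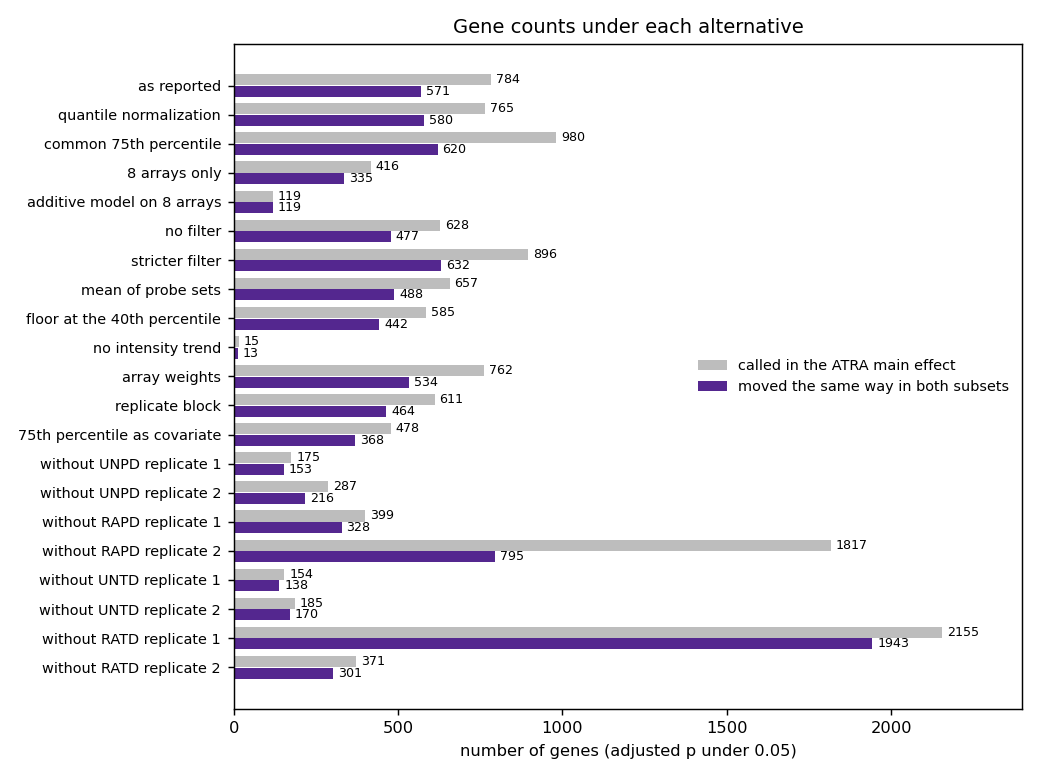
Number of genes (x axis) called in the averaged ATRA difference (grey) and number that moved the same way in both subsets (purple), under each setting and with each array left out. The fit as reported gave 784 and 571 genes, the fit without UNTD replicate 1 gave 154 and 138, and the fit without RATD replicate 1 gave 2155 and 1943.

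Across genes, the ATRA differences in PD and in TD, which share no array, had a Pearson correlation of 0.197 over 14581 genes and of 0.349 over the 6329 bright ones, and 55.0% of all genes had the same sign in both. Genes are not independent replicates, so this is a description. The size of the shift differed between treated arrays: over the 326 genes that rose in both subsets, the median excess over the mean of the untreated arrays of the subset was 1.27 and 1.12 log2 units on RAPD replicates 1 and 2, and 0.51 and 1.38 on RATD replicates 1 and 2. Over the 245 genes that fell, the same medians were -1.04, -1.04, -0.53 and -1.26. RATD replicate 1 thus showed the smallest shift in each direction. These genes were chosen on the same arrays for lying apart in these directions. The signs of the medians were therefore set by the choice, and their sizes may be raised by it. On its own, the PD subset gave 1173 calls (8.04%; 4.86% higher and 3.19% lower) and the TD subset 42 (0.288%; 0.192% higher and 0.096% lower), and the difference between the subsets was called for 35 genes (0.24%; 0.0617% with the larger value in TD and 0.178% in PD).

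**Figure D2:**
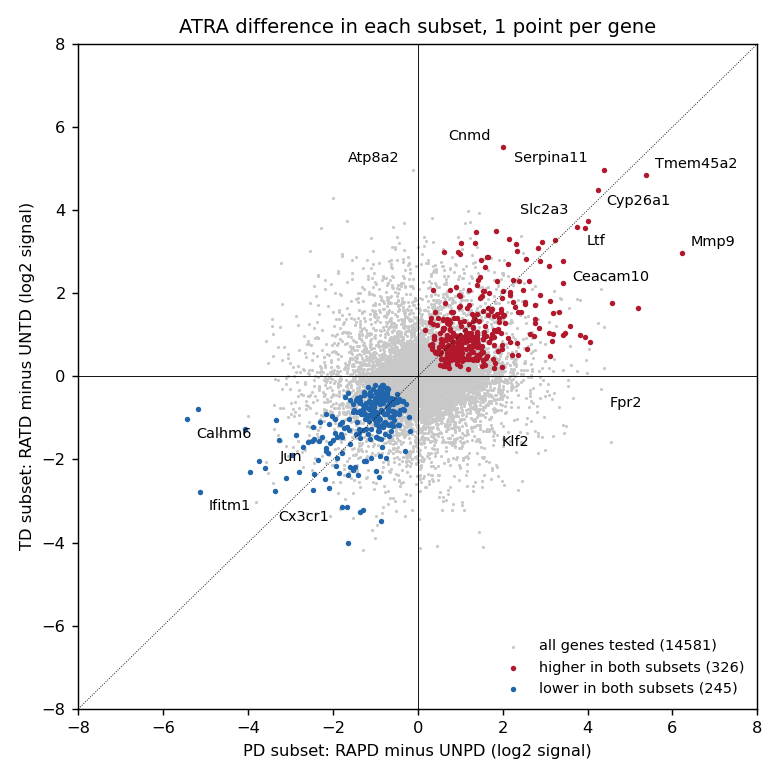
ATRA difference in log2 signal in the PD subset (x axis, RAPD minus UNPD) against that in the TD subset (y axis, RATD minus UNTD), 1 point per gene for 14581 genes. The 326 red genes rose and the 245 blue genes fell in both subsets, the dotted line marks equal differences, and Ltf, Slc2a3 and Ceacam10 lie near it while Fpr2 and Klf2 lie where the signs are opposite.

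Among retinoid pathway genes, Cyp26a1, which encodes the enzyme that oxidises and clears retinoic acid and is a classic target of its receptors, showed the clearest change. Its log2 signal was 3.77 and 3.34 in UNPD, 7.95 and 7.64 in RAPD, 5.34 and 3.02 in UNTD and 9.07 and 8.26 in RATD. All 4 treated arrays lay above all 4 untreated ones, and both UNPD arrays and UNTD replicate 2 lay at or below the 40th percentile of their array, which is called dim here. Against the dim level Cyp26a1 was at least 7.56-fold higher in RAPD, the TD difference was 4.48, and the averaged difference was called (adjusted p = 0.00516).

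Of 21 measured members of a retinoid pathway list, 3 rose and 0 fell, and 2 moved the same way, beside 3.08% and 2.3% of all genes that rose and fell. The count was 1 without UNPD replicate 1 or either UNTD array, and 5 without RATD replicate 1. Besides Cyp26a1, Rdh12, a retinol dehydrogenase, rose by 1.16 ± 0.25 (adjusted p = 0.0236), with levels of 9.60 and 9.66 in UNPD, 10.12 and 10.68 in RAPD, 8.44 and 8.19 in UNTD and 9.21 and 10.52 in RATD; the call was lost without either UNPD or either UNTD array. The groups did not overlap within a subset, but 1 array of RATD lay below the UNPD arrays. Dhrs3, which reduces retinaldehyde back to retinol, was called as well (0.75 ± 0.16, adjusted p = 0.0254), yet its subsets went opposite ways: the difference was 1.93 ± 0.23 (adjusted p = 0.00149) in PD and -0.43 ± 0.23 (adjusted p = 0.564) in TD, and the difference between the subsets was -2.36 ± 0.33 (adjusted p = 0.0167). In UNTD it already stood at 11.09 and 11.30, near the 11.55 and 11.64 of RAPD.

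None of the receptor genes was called. Rarb, whose promoter holds the best studied retinoic acid response element, was dim on 7 of the 8 arrays (4.65 and 2.92 in UNPD, 3.48 and 5.20 in RAPD, 4.82 and 0.40 in UNTD and 4.40 and 4.05 in RATD). Rara differed by 0.64 ± 0.46 (adjusted p = 0.452), Rarg by -0.43 ± 0.18 (adjusted p = 0.184), and the partner gene Rxra by -0.22 ± 0.17 (adjusted p = 0.482). Pml, the other gene of the fusion, differed by 0.62 ± 0.24 (adjusted p = 0.149). Tgm2, a transglutaminase that ATRA induces in human APL cells, differed by 0.56 ± 0.33 (adjusted p = 0.346). The probe sets do not tell the transcript of the fusion from those of the parent genes.

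A pair of genes known from retinoid-treated APL cells was looked up after the values had been seen. Pram1, an adaptor protein first described as regulated by PML-RARα, read 9.48 and 9.47 in UNPD, 12.48 and 12.84 in RAPD, 10.61 and 10.43 in UNTD and 11.20 and 12.88 in RATD. Its difference was 2.35 ± 0.28 (adjusted p = 0.00179). Dapk2, a calmodulin-dependent kinase, read 6.25 and 5.87 in UNPD, 9.32 and 9.63 in RAPD, 6.03 and 5.46 in UNTD and 6.99 and 9.0 in RATD. The difference for Dapk2 was 2.83 ± 0.39 (adjusted p = 0.00334). In both subsets the treated arrays lay above the untreated ones.

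Promoter sequence was examined for the response element of the receptors, a direct repeat of a short half-site. RefSeq promoters of assembly GRCm38.p6, 250 bases before to 50 after the start, were searched on both strands for the half-sites AGGTCA (the form named first in textbooks), AGTTCA (also of the consensus), GGGTCA (likewise) and GGTTCA (likewise), each paired with any of the 4 in the same orientation and spaced by 1, 2 or 5 bases. A promoter was at hand for 263 of the 326 genes that rose in both subsets and for 191 of the 245 that fell. The repeat spaced by 5 was found in 2 of the 263 (0.760%), Cyp26a1 and Tnfsf13b, and in 0 of the 191, beside 8 of 11701 genes tested with a promoter (0.0684%) and 32 of all 32851 promoters (0.0974%). The repeat spaced by 1 was found in 1 of the 263, Phactr2, and in 0 of the 191 (0.222% of all promoters), and that spaced by 2 in 0 of either (0.268%). Cyp26a1 is one of the genes from which this element is known, so its match is no independent finding, and the counts are a description. The 250 bases before the start of Cyp26a1 (chr19:37697558-37697807, plus strand) and of Tnfsf13b (chr8:10006217-10006466, plus strand) are printed to show the repeat, 5′ to 3′, with the half-sites in capitals.
Cyp26a1: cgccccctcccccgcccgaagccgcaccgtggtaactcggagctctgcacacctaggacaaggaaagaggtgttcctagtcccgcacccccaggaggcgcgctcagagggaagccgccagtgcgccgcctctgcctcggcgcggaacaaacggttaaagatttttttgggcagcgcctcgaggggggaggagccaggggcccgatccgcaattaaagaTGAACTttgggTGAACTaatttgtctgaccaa
Tnfsf13b: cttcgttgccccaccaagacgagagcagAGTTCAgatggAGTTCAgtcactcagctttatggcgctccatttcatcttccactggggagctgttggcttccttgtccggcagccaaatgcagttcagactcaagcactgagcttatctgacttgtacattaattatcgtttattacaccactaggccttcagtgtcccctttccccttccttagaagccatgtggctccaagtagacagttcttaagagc
In Cyp26a1 the repeat ends 15 bases before the start and reads as the half-site AGTTCA on the minus strand, and in Tnfsf13b it ends 205 bases before the start and lies on the plus strand. Tnfsf13b, which encodes the B cell survival factor BAFF and is named for this match after its values were seen, read 9.64 and 9.42 in UNPD, 11.18 and 11.63 in RAPD, 9.23 and 8.93 in UNTD and 9.44 and 11.73 in RATD. Its averaged difference was 1.69 ± 0.37 (adjusted p = 0.0254), and it was not called without UNPD replicate 1 or 2, RAPD replicate 1, or UNTD replicate 1 or 2. The motif TTGCNNAA, a form of the site of C/EBP proteins searched on both strands, stood in 27 of the 263 promoters of genes that rose (10.3%) and in 29 of the 191 of genes that fell (15.2%), beside 10.5% of genes tested. A match is not a site at which a factor was shown to bind.

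The genes of a secondary and tertiary granule list rose where they were called. The list also holds genes whose products are not granule contents, Padi4, Ltb4r1 and Lyst among them. It was written with earlier results of these data known, so its share of calls is no independent test. Ltb4r1, Itgb2 and Cybb are counted again in lists below. Of 31 measured, 20 rose and 0 fell, and 14 moved the same way in both subsets (11 of them in the core), beside 3.08% that rose and 2.24% that moved the same way upwards among all genes. The count that rose was 13 without UNPD replicate 1. The median difference of the list was 0.99 log2 units (1.61 in PD and 0.70 in TD), beside 0.0017 over all genes.

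Ltf encodes lactoferrin, the iron-binding protein of secondary granules. Its log2 signal was 11.37 and 10.76 in UNPD, 14.63 and 15.02 in RAPD, 11.28 and 10.01 in UNTD and 13.42 and 15.05 in RATD. Every treated array lay above every untreated one, RATD replicate 1 with the smallest distance. The averaged difference was 3.67 ± 0.34 (adjusted p = 0.000477), and the subset differences were nearly equal, 3.76 in PD and 3.59 in TD. Ngp, a cathelicidin-like granule protein, read 14.77 and 14.68 in UNPD, 15.11 and 15.52 in RAPD, 14.28 and 13.52 in UNTD and 15.07 and 15.50 in RATD, a difference of 0.99 ± 0.17 (adjusted p = 0.0109) that was not called without UNPD replicate 1. Lcn2, which binds bacterial siderophores, differed by 0.53 ± 0.13 (adjusted p = 0.0350), and its highest untreated reading (14.95) was close to the lowest treated one (15.01); it was not called without either UNPD array, either UNTD array or RATD replicate 2. Camp, the cathelicidin gene, did not pass the test (0.39 ± 0.14, adjusted p = 0.131); it was already at 15.02 and 14.84 in UNPD.

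Among the antibacterial proteins of these granules, Pglyrp1, a peptidoglycan recognition protein, read 10.03 and 9.97 in UNPD, 12.78 and 13.09 in RAPD, 9.49 and 8.99 in UNTD and 11.38 and 13.57 in RATD. It rose by 3.08 ± 0.35 (adjusted p = 0.00175), with 2.93 in PD and 3.23 in TD. Fcnb, a ficolin that recognises microbial sugars, rose by 2.88 ± 0.38 (adjusted p = 0.00310), from 9.64 and 9.29 in UNPD to 12.35 and 12.78 in RAPD, and from 8.52 and 8.07 in UNTD to 9.78 and 12.14 in RATD. Olfm4, which marks a share of secondary granules, moved by about the same amount in each subset: 1.39 ± 0.15 (adjusted p = 0.00152) averaged, 1.45 in PD and 1.32 in TD. Ceacam10, a secreted member of the carcinoembryonic antigen family, read 10.59 and 10.96 in UNPD, 14.06 and 14.32 in RAPD, 11.10 and 10.48 in UNTD and 12.67 and 14.48 in RATD, and rose by 3.10 ± 0.31 (adjusted p = 0.000904).

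The metalloproteases of the late granules rose too. Mmp9, the gelatinase, read 7.14 and 6.14 in UNPD, 12.80 and 12.93 in RAPD, 8.25 and 7.86 in UNTD and 10.04 and 12.01 in RATD. Mmp9 had a difference of 4.59 ± 0.39 (adjusted p = 0.000281). The treated arrays stood above the untreated ones in both subsets; the point estimate was larger in PD (6.22) than in TD (2.97), and the difference between the subsets was not called (-3.25 ± 0.77, adjusted p = 0.119). A further Mmp9 probe set rose by 5.56. Mmp8, the neutrophil collagenase, read 5.50 and 5.22 in UNPD, 7.48 and 6.52 in RAPD, 6.76 and 6.73 in UNTD and 10.35 and 8.89 in RATD, a difference of 2.26 ± 0.38 (adjusted p = 0.0101), with RATD above RAPD on both arrays. Stfa2l1, a stefin that inhibits cysteine proteases, rose by 2.27 ± 0.20 (adjusted p = 0.000334) with an unequal response, 3.48 in PD and 1.05 in TD (difference -2.43 ± 0.40, adjusted p = 0.0417); the array may not tell the stefin genes apart.

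The remaining called members of the list, named to complete the count, were Chil1 (1.51), Cd177 (0.73), Ltb4r1 (2.29) and Padi4 (2.23), which moved the same way, and Ceacam1 (1.03), Itgb2 (0.81), Lyst (1.01), Stfa3 (1.29), Cybb (1.37) and Anxa1 (0.93), whose arrays overlapped in a subset. Padi4 citrullinates histones in neutrophils, Ltb4r1 is the receptor for leukotriene B4, and Lyst is needed for normal granule size. Ltb4r1 read 10.00 and 9.51 in UNPD, 11.72 and 12.28 in RAPD, 8.65 and 8.56 in UNTD and 9.82 and 12.05 in RATD. Its difference was 2.29 ± 0.37 (adjusted p = 0.00760).

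**Figure D3:**
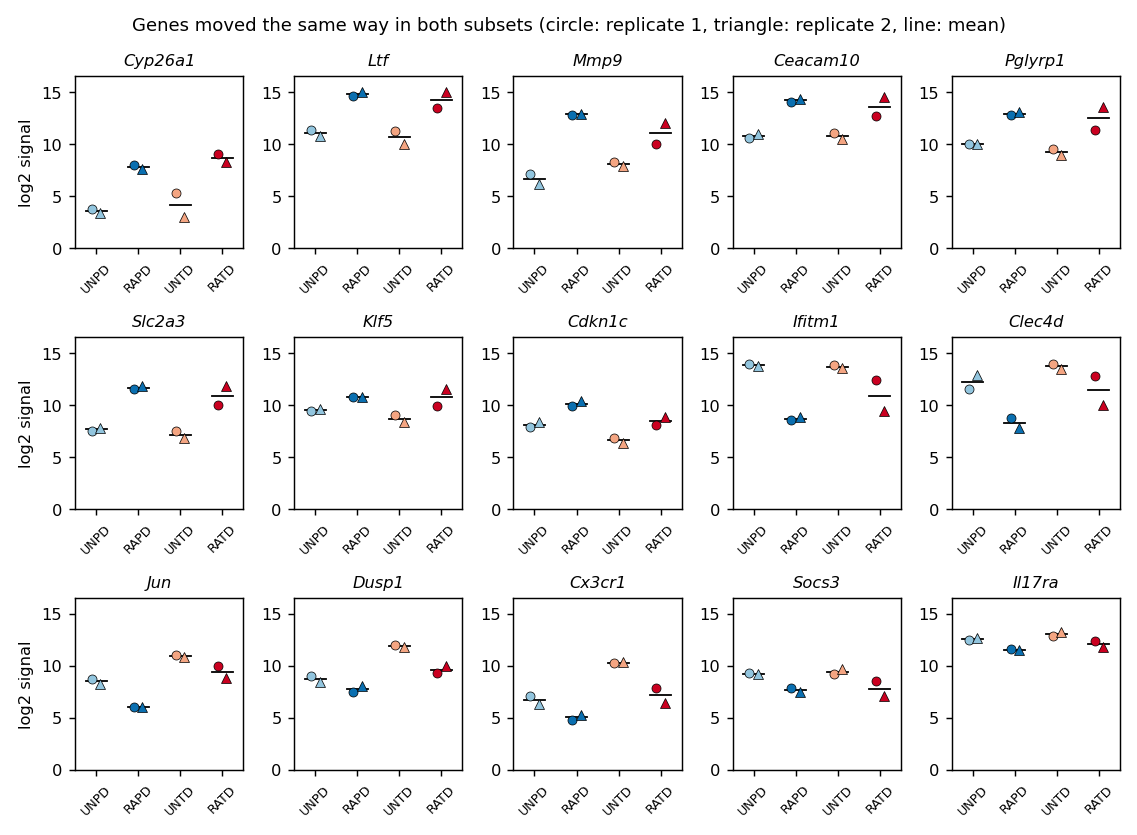
Log2 signal (y axis) of 15 genes on each of the 8 arrays, by group (x axis), with circles for replicate 1, triangles for replicate 2 and a line at the mean of 2 arrays. In Cyp26a1, Ltf, Mmp9, Ceacam10, Pglyrp1, Slc2a3, Klf5 and Cdkn1c the treated arrays lie above the untreated ones of the same subset, and in Ifitm1, Clec4d, Jun, Dusp1, Cx3cr1, Socs3 and Il17ra below them; RATD replicate 1 is often the treated array nearest to the untreated ones.

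Of 14 measured genes of primary granules, made at the promyelocyte stage, 1 rose and 1 fell, beside 3.08% and 2.3% of all genes, and the median was 0.06 log2 units. The count that rose was 3 without RATD replicate 1 and 0 with any other array left out, and the count that fell was 0 without UNPD replicate 1 or UNTD replicate 1, and 2 without RATD replicate 1. Mpo, myeloperoxidase, read 15.32 and 15.27 in UNPD, 14.80 and 14.96 in RAPD, 14.28 and 13.66 in UNTD and 14.29 and 13.33 in RATD, a difference of -0.29 ± 0.19 (adjusted p = 0.409) that did not pass the test. Elane (0.46 ± 0.16, adjusted p = 0.117), Prtn3 (0.16 ± 0.13, adjusted p = 0.501) and Ctsg (-0.06 ± 0.13, adjusted p = 0.832), the serine proteases of these granules, did not pass either. Cst7, cystatin F, an inhibitor of the proteases that activate them, fell by 1.08 ± 0.19 log2 units (adjusted p = 0.0122), from 14.19 and 14.17 in UNPD to 12.92 and 12.95 in RAPD, and from 13.33 and 12.96 in UNTD to 12.78 and 11.69 in RATD; the call was lost without UNPD replicate 1 or UNTD replicate 1. Serpinb1a, which inhibits elastase in the cytosol, rose by 0.53 ± 0.13 (adjusted p = 0.0427). That call was lost with any array but RATD replicate 1 left out. A further Serpinb1a probe set rose by 1.09 ± 0.16 (limma over all kept probe sets, adjusted p = 0.00676).

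A stricter reading asks for a call in each subset by itself. Only 16 genes (0.11%) passed in PD and in TD with the same direction, 1.36% of the PD calls and 38.1% of the TD calls; they are named here after their values were seen. The genes that rose were AA467197, Adtrp, Cdkn1c, Ceacam10, Ltf, Map3k9, Olfm4, Pglyrp1, Rasl11b, Rflnb, Serpina11 and Slc2a3, and those that fell were Ccl3, Cx3cr1, Dusp1 and Gm49249. Adtrp, a hydrolase of fatty acid esters of hydroxy fatty acids, read 6.36 and 7.25 in UNPD, 8.98 and 9.28 in RAPD, 5.58 and 5.39 in UNTD and 8.07 and 9.28 in RATD. The difference for Adtrp was 2.76 ± 0.30 (adjusted p = 0.00152). Map3k9, a mixed lineage kinase, read 6.13 and 5.80 in UNPD, 8.36 and 8.68 in RAPD, 5.62 and 4.99 in UNTD and 7.37 and 8.89 in RATD. Map3k9 had a difference of 2.69 ± 0.35 (adjusted p = 0.00292). Rasl11b, a small GTPase of the Ras family, rose by 2.68 ± 0.36 (adjusted p = 0.00334), Rflnb, an actin-bundling partner of filamin, by 2.08 ± 0.29 (adjusted p = 0.00334), and AA467197 by 3.76 ± 0.44 (adjusted p = 0.00175). In each of these 5 genes RATD replicate 2 stood above RATD replicate 1, and both stood above the UNTD arrays.

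Outside the granule list, Slc2a3, the high-affinity glucose transporter GLUT3, had one of the largest changes. Its log2 signal was 7.48 and 7.81 in UNPD, 11.54 and 11.78 in RAPD, 7.45 and 6.85 in UNTD and 10.00 and 11.78 in RATD. The treated arrays lay above the untreated ones without overlap, and the averaged difference was 3.88 ± 0.32 (adjusted p = 0.000279). A further probe set of the gene rose by 4.26, and another, with a dim signal, differed by -0.36. Of the glycolysis, glycogen and pentose phosphate list, 5 of 26 rose and 1 fell, beside 3.08% and 2.3% of all genes, with a median of 0.07. Pfkfb4, which sets the level of fructose-2,6-bisphosphate, rose by 1.02 ± 0.22 (adjusted p = 0.0271) and Gyg, the primer of glycogen synthesis, by 0.59 ± 0.13 (adjusted p = 0.0281). Pygl, glycogen phosphorylase, was called at 0.59 ± 0.13 (adjusted p = 0.0257) with a TD difference of 0.19. Pfkp, a phosphofructokinase, fell by 0.83 ± 0.18 (adjusted p = 0.0275) with overlapping TD arrays. The count that rose was 1 without UNPD replicate 1 or either UNTD array, 2 without RATD replicate 2, 3 without UNPD replicate 2, and 8 without RATD replicate 1. The count that fell was 3 without RATD replicate 1, 1 without RAPD replicate 2 and 0 with any other array left out.

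Several of the other genes with the largest increases started from dim signals. Tmem45a2 read 4.12 and 2.09 in UNPD, 8.85 and 8.14 in RAPD, 3.80 and 4.02 in UNTD and 7.12 and 10.39 in RATD, which was at least 12.3-fold higher with ATRA in PD and at least 13.1-fold in TD (adjusted p = 0.00334). Serpina11, of the family of serine protease inhibitors, read 4.33 and 4.38 in UNPD, 8.59 and 8.89 in RAPD, 2.22 and 1.14 in UNTD and 5.36 and 7.97 in RATD, at least 14.6-fold and at least 3.07-fold higher (adjusted p = 0.00334). In both genes every untreated array was dim and every treated array was above the dim level. Cnmd, known as chondromodulin from cartilage, was dim in UNTD (2.04 and 1.30), and was at least 4.40-fold higher in RATD (6.21 and 8.16). Ipcef1, a partner of cytohesins, rose by 3.16 ± 0.40 (adjusted p = 0.00225), with 4.57 in PD and 1.76 in TD. Serpina1b, an alpha-1 antitrypsin gene read by a probe set that may be shared among its copies, rose by 3.41 ± 0.57 (adjusted p = 0.00965) but not in every fit: it was not called without UNPD replicate 1 or UNTD replicate 2. Il18r1, a chain of the interleukin-18 receptor (2.96 ± 0.70, adjusted p = 0.0349), Ifit1bl2 (3.25 ± 0.68, adjusted p = 0.0227) and Ppp1r42, dim on every untreated array and at least 3.52-fold higher in RAPD and 3.50-fold in RATD (adjusted p = 0.0140), each lost the call without any one of 5 arrays, UNPD replicate 1, RAPD replicate 1 and both UNTD arrays among them.

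Of 31 measured genes of the mature neutrophil, 8 rose and 6 fell, beside 3.08% and 2.3% of all genes, and 7 and 6 of these moved the same way, with a median of 0.16. G0s2, which inhibits the main triglyceride lipase, read 9.33 and 9.94 in UNPD, 11.92 and 12.42 in RAPD, 9.25 and 8.79 in UNTD and 10.22 and 11.38 in RATD. Its difference was 2.16 ± 0.24 (adjusted p = 0.00175). Il1rn, the interleukin-1 receptor antagonist, rose by 2.41 ± 0.29 (adjusted p = 0.00179), with RATD replicate 1 (10.20) just above UNTD replicate 1 (10.06). Cxcr2, the receptor through which neutrophils follow CXC chemokines out of the marrow, read 6.89 and 7.55 in UNPD, 9.07 and 8.87 in RAPD, 8.46 and 8.54 in UNTD and 9.29 and 9.77 in RATD, a difference of 1.39 ± 0.20 (adjusted p = 0.00498) with no overlap in either subset. The members that fell were Ifitm1, Clec4d and Clec4e, described below, and Ifitm2, Ifitm3 and Wfdc17, named to complete the count. Ifitm3 differed by -1.71, Wfdc17 by -2.21 and Ifitm2 by -0.93. Lrg1, a secreted glycoprotein of granulocytes named on the same ground, rose by 1.97. Csf3r, the receptor for G-CSF, differed by -0.06 ± 0.12 (adjusted p = 0.793) and did not pass.

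Of chemoattractant receptors and adhesion molecules, 5 of 21 rose and 0 fell, beside 3.08% and 2.3% of all genes; the count that fell was 1 without RAPD replicate 2 or RATD replicate 1. C5ar1, the receptor for complement C5a, read 7.25 and 7.78 in UNPD, 10.21 and 10.28 in RAPD, 8.78 and 8.91 in UNTD and 9.09 and 10.52 in RATD. The difference for C5ar1 was 1.85 ± 0.27 (adjusted p = 0.00432). Itga6, an integrin chain, rose by 1.02 ± 0.20 (adjusted p = 0.0177), a call lost without any one of 5 arrays. Fpr2, a formyl peptide receptor, rose in PD (4.31 ± 0.21, adjusted p = 3.31e-06), while TD differed by -0.29 ± 0.21 (adjusted p = 0.712).

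Of 11 genes of the phagocyte oxidase 3 rose (5 without RATD replicate 1) and 0 fell, beside 3.08% and 2.3% of all genes, and 1 moved the same way, where 571 of the 784 calls over all genes did. Ncf4, a cytosolic subunit, read 13.34 and 13.23 in UNPD, 14.33 and 14.76 in RAPD, 13.42 and 13.29 in UNTD and 13.64 and 14.32 in RATD, a difference of 0.94 ± 0.15 (adjusted p = 0.00822) with no overlap in either subset. Cybb, the catalytic subunit, rose by 1.37 ± 0.16 (adjusted p = 0.00188) on average, but from 11.60 and 11.65 in UNPD to 14.41 and 13.99 in RAPD, while it read 14.40 and 14.21 in UNTD and 14.08 and 14.86 in RATD; the TD arrays overlapped. Of 27 phagocytosis and surface receptor genes 5 rose and 0 fell, beside 3.08% and 2.3% of all genes, and 2 moved the same way. Fcgr4, a receptor for IgG, rose by 2.44 ± 0.24 (adjusted p = 0.000904), with 4.07 in PD and 0.82 in TD, and Clec4a2, an inhibitory lectin receptor, by 0.68 ± 0.14 (adjusted p = 0.0205). Itgb2, the common chain of the leukocyte integrins, was called at 0.81 ± 0.16 (adjusted p = 0.0180) with 1.63 in PD and 0.00 in TD, and its partner Itgam did not pass (0.61 ± 0.18, adjusted p = 0.0785). The count of receptor genes that rose was 1 without UNPD replicate 1 or UNTD replicate 2, 2 without UNTD replicate 1, 3 without UNPD replicate 2, and 8 without RATD replicate 1, and the count that fell was 1 without RAPD replicate 2, and 3 without RATD replicate 1.

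Of 23 transcription factors of granulocytes, 4 rose and 0 fell, beside 3.08% and 2.3% of all genes, with a median of 0.28. Klf5, a zinc-finger factor of granulocyte maturation, read 9.45 and 9.57 in UNPD, 10.73 and 10.71 in RAPD, 9.03 and 8.31 in UNTD and 9.92 and 11.56 in RATD, a difference of 1.64 ± 0.29 (adjusted p = 0.0116) that was lost without UNPD replicate 1 or UNTD replicate 2. Mxd1, which competes with MYC for its partner MAX, read 9.83 and 11.05 in UNPD, 11.70 and 11.79 in RAPD, 10.28 and 10.45 in UNTD and 11.08 and 12.32 in RATD. Mxd1 had a difference of 1.32 ± 0.28 (adjusted p = 0.0228). Gfi1, a repressor needed for neutrophil differentiation, rose by 0.94 ± 0.21 (adjusted p = 0.0284), with 0.48 in PD and 1.41 in TD. Ets1 was called at 1.21 ± 0.26 (adjusted p = 0.0236) with overlapping TD arrays. The number of these that rose was 0 without UNPD replicate 1 or UNTD replicate 2, 1 without RAPD replicate 1 or UNTD replicate 1, 2 without UNPD replicate 2, and 7 without RATD replicate 1. The C/EBP genes did not pass as read by their brightest probe sets: Cebpa differed by -0.10 ± 0.11 (adjusted p = 0.629), Cebpb by -0.10 ± 0.10 (adjusted p = 0.616) and Cebpd by 0.06 ± 0.11 (adjusted p = 0.776). A further Cebpb probe set differed by -0.49 ± 0.11 and passed (limma over all kept probe sets, adjusted p = 0.0445). A further Cebpd probe set, at -0.37 ± 0.20 (adjusted p = 0.345 in the same fit), did not. Spi1, which encodes PU.1, differed by 0.16 ± 0.13 (adjusted p = 0.512), and Cebpe, the C/EBP factor of secondary granule genes, was not among the genes tested.

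Inhibitors of cyclin-dependent kinases split. Cdkn1c, which encodes p57, read 7.85 and 8.37 in UNPD, 9.85 and 10.34 in RAPD, 6.81 and 6.37 in UNTD and 8.11 and 8.85 in RATD, an averaged difference of 1.94 ± 0.24 (adjusted p = 0.00214) that was nearly equal in the subsets (1.98 in PD and 1.89 in TD). Cdkn2d, which encodes p19INK4d, rose by 1.12 ± 0.19 (adjusted p = 0.00882), from 11.01 and 10.90 in UNPD to 12.03 and 12.42 in RAPD, and from 10.51 and 10.34 in UNTD to 10.92 and 11.86 in RATD. Cdkn1a, which encodes p21, fell by 0.98 ± 0.16 (adjusted p = 0.00822), with levels of 11.96 and 12.14 in UNPD, 10.67 and 10.70 in RAPD, 12.32 and 11.85 in UNTD and 11.82 and 11.19 in RATD. These were the only members called of the 19 measured genes of G1 cyclins, kinases and inhibitors in the fit to all arrays, 2 higher and 1 lower beside 3.08% and 2.3% of all genes; without RAPD replicate 2 or RATD replicate 1, 5 rose and 2 fell.

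Of 35 genes of cell cycle and mitosis, 0 rose and 0 fell in the limma fit (3 and 1 at an unadjusted p under 0.05), beside 3.08% and 2.3% of all genes, with a median of 0.12; without RAPD replicate 2, 7 rose and 2 fell. Of 35 genes of DNA replication and nucleotide supply, 4 rose and 0 fell, with a median of 0.14: Tk1, thymidine kinase (0.77 ± 0.14, adjusted p = 0.0134), Rrm2, a subunit of ribonucleotide reductase (0.68 ± 0.12, adjusted p = 0.0109), Mcm4, of the replicative helicase (0.70 ± 0.16, adjusted p = 0.0336), and E2f2 (1.22 ± 0.21, adjusted p = 0.0108), of which E2f2 overlapped in TD. The number called higher was 0 without UNTD replicate 1, and 2 without either UNPD array or UNTD replicate 2. Myc differed by -0.25 ± 0.15 (adjusted p = 0.346) and Kit, the stem cell factor receptor, by -0.19 ± 0.14 (adjusted p = 0.449), and neither passed. Beside the DNA replication count above and the progenitor count that follows stand 3.08% of all genes that rose and 2.3% that fell. Of 26 progenitor genes, 2 rose and 0 fell; the number that fell was 1 without RATD replicate 1, and 2 without RAPD replicate 2. Prom1 (0.94 ± 0.21, adjusted p = 0.0269) and Myb (0.50 ± 0.13, adjusted p = 0.0473) rose, both calls being lost with any array left out but RAPD replicate 2 or RATD replicate 1.

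Among the genes that fell, Ifitm1, an interferon-inducible membrane protein, had the largest difference. Its log2 signal was 13.94 and 13.69 in UNPD, 8.52 and 8.84 in RAPD, 13.82 and 13.52 in UNTD and 12.38 and 9.39 in RATD. The treated arrays lay below the untreated ones in both subsets, with RATD replicate 1 much nearer to them than RATD replicate 2. The averaged difference was -3.96 ± 0.46 (adjusted p = 0.00175). Of the same family, Ifitm6 went the other way and rose by 2.01 ± 0.15 (adjusted p = 0.000171), with 3.16 in PD and 0.86 in TD. Of 31 genes of the interferon response 2 rose and 0 fell, beside 3.08% and 2.3% of all genes, namely Ube2l6, the ISG15-conjugating enzyme (2.01 ± 0.33, adjusted p = 0.00843), and Irf1 (0.75 ± 0.16, adjusted p = 0.0236), with a list median of -0.04; the count that rose was 0 without UNTD replicate 1, 1 without either UNPD array, UNTD replicate 2 or RATD replicate 2, 4 without RATD replicate 1, and 6 without RAPD replicate 2, and the count that fell was 1 without RAPD replicate 2, and 8 without RATD replicate 1.

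The lectin receptors Clec4d and Clec4e, which sense mycobacterial and fungal glycolipids and damaged cells, fell together. Clec4d read 11.54 and 12.83 in UNPD, 8.70 and 7.77 in RAPD, 13.91 and 13.47 in UNTD and 12.80 and 9.99 in RATD, a difference of -3.12 ± 0.49 (adjusted p = 0.00682), and Clec4e read 10.67 and 12.00 in UNPD, 8.37 and 7.76 in RAPD, 12.99 and 12.17 in UNTD and 11.92 and 10.17 in RATD. Its difference was -2.40 ± 0.37 (adjusted p = 0.00639). The groups did not overlap within a subset in either gene. Fut7, the fucosyltransferase that completes selectin ligands, read 8.89 and 8.58 in UNPD, 3.92 and 6.06 in RAPD, 8.29 and 9.03 in UNTD and 7.12 and 6.15 in RATD. The difference for Fut7 was -2.88 ± 0.41 (adjusted p = 0.00388). S100a4, a calcium-binding protein of motile cells, fell by 2.44 ± 0.43 (adjusted p = 0.0113), a call lost without UNPD replicate 2 or UNTD replicate 1. Calhm6, of a family of channel-forming proteins, was at least 5.02-fold lower in RAPD, where both arrays were dim, and differed by -1.04 in TD (adjusted p = 0.00175 for the averaged difference). Its difference between the subsets was called, but its size rests on the dim RAPD readings.

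Other large decreases were measured near the floor. Ptgs2, the inducible cyclooxygenase, was dim on all PD arrays, so that no PD change could be measured; in TD it read 9.81 and 8.89 in UNTD and 6.45 and 5.97 in RATD, a TD difference of -3.14, and its averaged difference was called (adjusted p = 0.0260). Ahnak2, a large scaffold protein, was at least 5.34-fold lower in RAPD and differed by -2.30 in TD (adjusted p = 0.0113 for the averaged difference), a call lost without UNTD replicate 2. Ttc25, Catsperg1, Fxyd7, Gprc5b, Lrfn4 and Osbpl5 were called lower in the averaged difference, and each had a dim reading on at least 1 array of both treated groups. Each of these 6 calls was lost without UNPD replicate 2, UNTD replicate 1, UNTD replicate 2 or RATD replicate 2.

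Immediate early genes, which respond within minutes to stimulation, included several that fell in the averaged difference. In PD alone, 4 of 30 measured were called higher and 3 lower, beside 4.86% and 3.19% of all genes. In the averaged difference 0 rose and 6 fell, 4 of them in both subsets, beside 2.3% and 1.68% of all genes that fell so. The count that fell was 3 without UNPD replicate 2 or UNTD replicate 1. The list median was -0.19 (0.05 in PD and -0.54 in TD). Jun read 8.75 and 8.25 in UNPD, 6.02 and 6.00 in RAPD, 11.06 and 10.86 in UNTD and 9.94 and 8.86 in RATD. Jun had a difference of -2.02 ± 0.22 (adjusted p = 0.00169). Fos read 11.99 and 11.50 in UNPD, 9.82 and 10.34 in RAPD, 14.00 and 13.61 in UNTD and 13.005 and 12.15 in RATD, a difference of -1.45 ± 0.20 (adjusted p = 0.00334). Dusp1, a phosphatase of MAP kinases, read 8.98 and 8.47 in UNPD, 7.47 and 8.00 in RAPD, 11.99 and 11.82 in UNTD and 9.33 and 9.93 in RATD, a difference of -1.63 ± 0.18 (adjusted p = 0.00175), with -0.99 in PD and -2.28 in TD. In all 3 genes the untreated TD arrays stood far above the untreated PD ones, and the treated arrays of each subset lay below its untreated arrays. Atf3, named to complete the count, also moved the same way (-1.36), while Rgs1 (-2.07 ± 0.38, adjusted p = 0.0128) and Fosb (-1.67 ± 0.42, adjusted p = 0.0447) overlapped in PD. Klf2, of the same list, went opposite ways, by 1.75 ± 0.23 (adjusted p = 0.00278) in PD and -1.25 ± 0.23 (adjusted p = 0.0591) in TD.

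Of 34 cytokine receptors and their signalling genes, 0 rose and 8 fell in the averaged difference, beside 3.08% and 2.3% of all genes, and all 8 that fell moved the same way, with a list median of -0.07. The PD counts of this list, given below, stand beside 4.86% of all genes called higher and 3.19% lower in PD. Il17ra, the interleukin-17 receptor, read 12.52 and 12.67 in UNPD, 11.56 and 11.46 in RAPD, 12.86 and 13.23 in UNTD and 12.40 and 11.84 in RATD. Its difference was -1.0 ± 0.14 (adjusted p = 0.00376). Tnfrsf1b, the type 2 receptor for TNF, read 11.49 and 11.48 in UNPD, 10.63 and 10.72 in RAPD, 12.08 and 11.96 in UNTD and 11.25 and 10.55 in RATD. The difference for Tnfrsf1b was -0.96 ± 0.15 (adjusted p = 0.00674). A further Tnfrsf1b probe set, with a mean log2 signal of 6.98, did not pass and differed by only -0.08 ± 0.30 (limma over all kept probe sets, adjusted p = 0.917). Socs3, which damps signals of IL-6 and G-CSF, fell by 1.60 ± 0.28 (adjusted p = 0.0109), with -1.59 in PD and -1.62 in TD. The chains of the interferon alpha and beta receptor fell by smaller amounts, Ifnar2 by 0.56 ± 0.13 (adjusted p = 0.0335) and Ifnar1, named to complete the count with Il6ra and Cish, at -0.72; Il6ra stood at -0.71 and Cish at -0.56. The count that fell was 2 without UNPD replicate 1 or UNTD replicate 2, 3 without UNTD replicate 1, and 4 without UNPD replicate 2, RAPD replicate 1 or RATD replicate 2, and the count that rose was 2 without RATD replicate 1, and 3 without RAPD replicate 2; in PD alone 1 was called higher and 5 lower.

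Among genes of monocytes and macrophages, Cx3cr1, the fractalkine receptor, read 7.11 and 6.30 in UNPD, 4.82 and 5.24 in RAPD, 10.21 and 10.35 in UNTD and 7.89 and 6.42 in RATD. Cx3cr1 had a difference of -2.40 ± 0.33 (adjusted p = 0.00334). Csf1r, the receptor of the macrophage growth factor, read 11.97 and 11.40 in UNPD, 10.45 and 9.89 in RAPD, 13.61 and 13.79 in UNTD and 13.48 and 12.19 in RATD, a difference of -1.19 ± 0.25 (adjusted p = 0.0219) that was lost without UNPD replicate 1 or either UNTD array; its 3 probe sets differed by -1.19, -1.15 and -0.91. Cd68, a lysosomal membrane protein, fell by 1.18 ± 0.27 (adjusted p = 0.0331), and Ccl3, a chemokine called in each subset, read 10.54 and 10.37 in UNPD, 9.58 and 8.51 in RAPD, 13.58 and 12.92 in UNTD and 11.17 and 10.58 in RATD. Its difference was -1.89 ± 0.23 (adjusted p = 0.00209). Vcam1, an adhesion molecule of marrow macrophages, rose by 2.15 ± 0.33 (adjusted p = 0.00626) and Slc40a1, the iron exporter ferroportin, by 1.62 ± 0.25 (adjusted p = 0.00613). In all, 2 of 23 measured markers rose and 3 fell, beside 3.08% and 2.3% of all genes, with medians of 0.67 in PD and -0.66 in TD; the count that fell was 1 without UNPD replicate 1 or either UNTD array, and 5 without RATD replicate 1. The markers Csf1r, Irf8, Ctss, Apoe, C1qa, C1qb, Trem2 and Adgre1 summed to linear signals of 4792 to 5887 in UNPD and 3039 to 4181 in RAPD, and of 33148 to 40136 in UNTD and 14580 to 31101 in RATD. Their part in the shared decreases was not tested.

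Of 33 lysosomal genes, 3 rose and 4 fell, beside 3.08% and 2.3% of all genes. The collagen-degrading protease gene Ctsk (dim on both RAPD arrays, at least 1.62-fold lower there, adjusted p = 0.0236), Ctsl, cathepsin L (-0.97 ± 0.25, adjusted p = 0.0454), and Cd68 fell in both subsets, while Wipi1, of autophagosome formation, rose (1.0 ± 0.22, adjusted p = 0.0269). The count that rose was 0 without either UNPD array or either UNTD array, and the count that fell was 0 without UNPD replicate 2, RAPD replicate 1 or either UNTD array, 1 without UNPD replicate 1 or RATD replicate 2, and 7 without RAPD replicate 2 or RATD replicate 1. Of 25 cholesterol and lipid synthesis genes 0 rose and 4 fell, beside 3.08% and 2.3% of all genes, with medians of -0.06 in PD and -0.57 in TD. Abcg1, a cholesterol exporter, read 10.30 and 10.83 in UNPD, 9.53 and 9.74 in RAPD, 11.78 and 11.70 in UNTD and 10.95 and 10.17 in RATD, a difference of -1.06 ± 0.18 (adjusted p = 0.0102), and Sqle, squalene epoxidase, fell by 0.75 ± 0.15 (adjusted p = 0.0160), with -0.19 in PD and -1.32 in TD. The count that fell was 0 without UNTD replicate 1, 1 without UNPD replicate 1, 2 without UNPD replicate 2, RAPD replicate 1, UNTD replicate 2 or RATD replicate 2, and 8 without RATD replicate 1.

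Among 50 genes of oxidative phosphorylation there were 0 calls in either direction (0 and 10 at an unadjusted p under 0.05 in the limma fit), beside 3.08% and 2.3% of all genes, with a median of -0.13 (-0.32 in PD and 0.13 in TD); the count that fell was 5 without RAPD replicate 2 or RATD replicate 1. Of 33 cytosolic ribosomal protein genes Rpl12 fell (-0.92 ± 0.20, adjusted p = 0.0239), with a median of -0.03; the count that fell was 0 without either UNPD array, RAPD replicate 1, UNTD replicate 1 or RATD replicate 2, 2 without RAPD replicate 2, and 3 without RATD replicate 1. Beside the ribosomal protein count and the count that follows stand 3.08% of all genes that rose and 2.3% that fell. Among 35 measured genes of the MYC network and of ribosome assembly, Mxd1 rose and 0 fell, with a median of -0.27 (-0.43 in PD and -0.07 in TD). The count that rose was 0 without UNPD replicate 1, RAPD replicate 1, either UNTD array or RATD replicate 2, and the count that fell was 2 without RAPD replicate 2, and 14 without RATD replicate 1; with arrays set to a common 75th percentile it was 3.

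**Figure D4:**
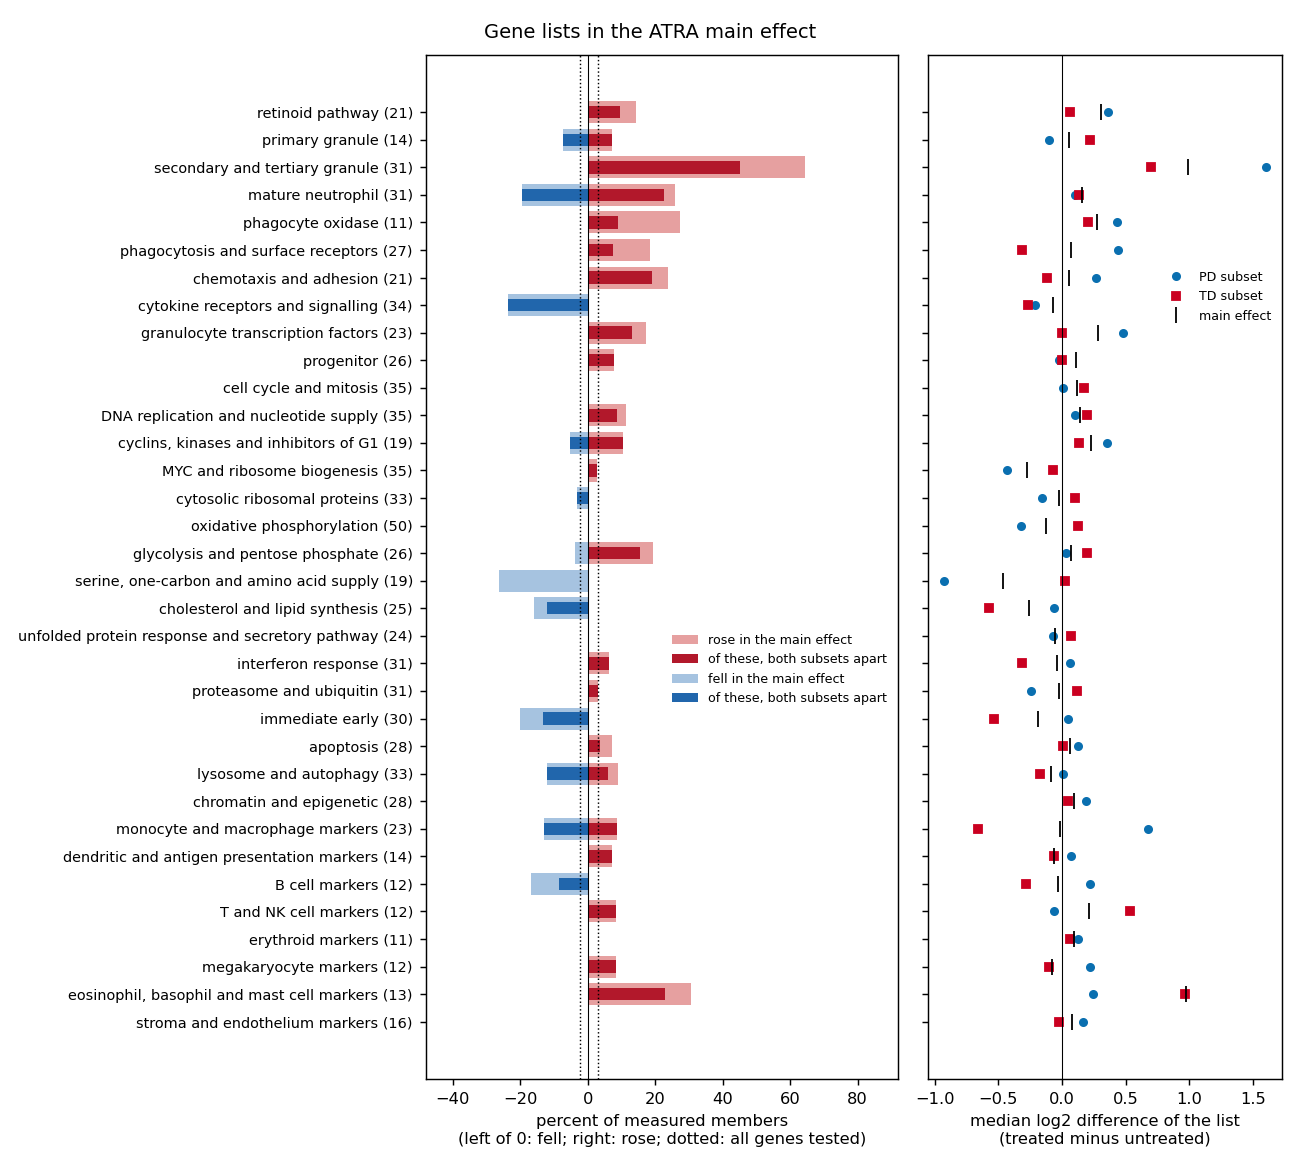
Share of the measured members of 34 gene lists (left, percent on the x axis, number measured in brackets) that rose (red) or fell (blue) in the averaged ATRA difference, with the darker part for members whose arrays lay apart in both subsets, and the median log2 difference of each list in PD, in TD and averaged (right). The secondary and tertiary granule list has 20 of 31 members higher against 3.08% of all genes (dotted). The lists were written with earlier results of these data known. The serine list has a median of -0.93 in PD and 0.02 in TD.

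Calls of several named genes depended on single arrays in addition to those stated above. The calls of E2f2, Abcg1 and Ube2l6 were lost without UNTD replicate 1. Those of Rrm2, Phgdh and Sqle were lost without UNPD replicate 1 or UNTD replicate 1, and that of Rgs1 without UNPD replicate 2 or UNTD replicate 1. Those of Cpa3 and Pirb were lost without UNPD replicate 1 or either UNTD array, and those of Tk1 and Siglecf without UNPD replicate 2 or either UNTD array. Itgb2 was not called without UNPD replicate 1, UNTD replicate 2 or RATD replicate 2. The calls of Gyg, Pygl and Hdc were lost without UNPD replicate 1, either UNTD array or RATD replicate 2, that of Prg2 without UNPD replicate 2 or the latter 3 arrays, and those of Pfkfb4, Wipi1 and Fgr without any one of the UNPD or UNTD arrays. Those of Mxd1, Gfi1, Ets1, Clec4a2, Cd68, Ctsl, Ctsk, Irf1, Ifnar2, Ptgs2, Fosb, Mcm4, Rpl12, Pfkp, Asns, Cd3d, H2-Eb1 and Dhrs3 were each lost without UNTD replicate 1 and also with any of at least 4 other arrays left out.

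Not every call of the averaged difference described a change common to both subsets. Of the 784 calls, 213 (1.46% of all genes) had arrays that overlapped in a subset or parted in opposite ways, 123 of them higher and 90 lower; 192 of the 213 were called in PD and 10 in TD, and 33 had differences of opposite sign. The difference between the subsets was called for 35 genes, 22 of which were also called in the averaged difference (0.151%) and 4 of which moved the same way (0.0274%). With an array left out the count of 35 ranged from 3, without UNTD replicate 2, to 1374, without RAPD replicate 2.

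Fpr2 was the clearest case. Its log2 signal was 7.70 and 8.29 in UNPD, 12.50 and 12.10 in RAPD, 13.44 and 13.46 in UNTD and 13.10 and 13.21 in RATD, so that the RAPD arrays came near the level that both TD groups held, and the difference between the subsets was -4.60 ± 0.30 (adjusted p = 7.61e-05). Hacd4, a dehydratase of very long chain fatty acid synthesis, read 6.95 and 7.52 in UNPD, 10.61 and 10.04 in RAPD, 11.56 and 11.59 in UNTD and 11.11 and 11.14 in RATD, and Fgr, a Src family kinase of myeloid cells, read 8.34 and 8.34 in UNPD, 10.11 and 10.23 in RAPD, 10.94 and 11.17 in UNTD and 10.52 and 10.44 in RATD. Both rose in PD, by 3.09 ± 0.24 (adjusted p = 0.000160) and 1.83 ± 0.19 (adjusted p = 0.000784), and differed in TD by -0.44 ± 0.24 (adjusted p = 0.571) and -0.58 ± 0.19 (adjusted p = 0.282). In all 3 genes the UNTD arrays lay above the RAPD arrays.

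Genes of serine, one-carbon and amino acid supply fell in PD where they were called. Of 19, 5 were called lower in the averaged difference, beside 2.3% of all genes, and 0 moved the same way, beside 1.68% of all genes downwards. In PD 11 were called lower and in TD 0, beside 3.19% and 0.096% of all genes. With so few calls in TD, a count of 0 there does not set this list apart. Phgdh, the first enzyme of serine synthesis, read 13.97 and 13.77 in UNPD, 11.15 and 12.00 in RAPD, 11.49 and 11.01 in UNTD and 11.55 and 11.18 in RATD. UNPD stood above the other 3 groups, which overlapped, and the difference between the subsets was 2.41 ± 0.37 (adjusted p = 0.0319). Asns, asparagine synthetase, had the same shape (-1.84 in PD and 0.01 in TD), but its difference between the subsets was not called (1.85 ± 0.37, adjusted p = 0.0773). The count that fell was 0 without UNPD replicate 1 or UNTD replicate 1, 1 without UNPD replicate 2, UNTD replicate 2 or RATD replicate 2, 2 without RAPD replicate 1, 10 without RATD replicate 1, and 11 without RAPD replicate 2.

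In the other direction, Hdc, histidine decarboxylase, read 8.55 and 9.50 in UNPD, 8.23 and 8.61 in RAPD, 6.33 and 6.10 in UNTD and 8.84 and 8.79 in RATD, a TD difference of 2.60 ± 0.31 (adjusted p = 0.00818) beside -0.61 ± 0.31 (adjusted p = 0.246) in PD. Atp8a2, a phospholipid flippase, was dim on both UNTD arrays and at least 2.68-fold higher in RATD, while PD differed by -0.12. With ATRA, Hdc in TD came within the range of the PD arrays, and Atp8a2 stayed below it. These Hdc values are from its brightest probe set. A further Hdc probe set rose by 2.11 ± 0.32 averaged over the subsets (limma over all kept probe sets, adjusted p = 0.00878). Only its averaged difference was read.

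**Figure D5:**
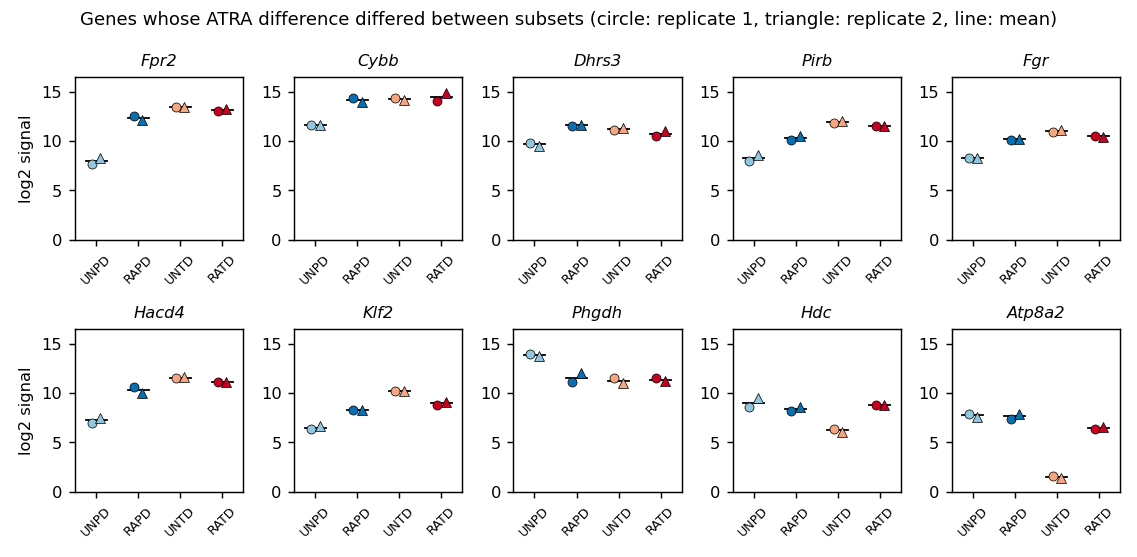
Log2 signal (y axis) of 10 genes with a called difference between the subsets, on each of the 8 arrays by group (x axis), with circles for replicate 1, triangles for replicate 2 and a line at the mean of 2 arrays. Fpr2, Cybb, Dhrs3, Pirb, Fgr, Hacd4 and Klf2 rose in PD and started higher in UNTD than in UNPD, Phgdh fell in PD, and Hdc and Atp8a2 were higher in RATD than in UNTD.

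Markers of other blood cells were read beside these results. Among eosinophil, basophil and mast cell markers, Prg2, the eosinophil major basic protein, rose by 1.73 ± 0.37 (adjusted p = 0.0237). Cpa3, mast cell carboxypeptidase, rose by 1.36 ± 0.28 (adjusted p = 0.0202) and Siglecf by 0.97 ± 0.19 (adjusted p = 0.0179). Hdc was called too (1.0 ± 0.22, adjusted p = 0.0280), and on its brightest probe set the rise lay in TD. In all, 4 of 13 measured rose and 0 fell, beside 3.08% and 2.3% of all genes. That count was 0 without either UNTD array, and 2 without UNPD replicate 2 or RATD replicate 2. The markers Epx, Prg2, Mcpt8, Cpa3, Ms4a2 and Fcer1a summed to linear signals of 2213 to 2785 in UNPD, 1629 to 2867 in RAPD, 868 to 1279 in UNTD and 1851 to 2433 in RATD. Of 12 measured T and NK cell markers 1 rose and 0 fell, beside 3.08% and 2.3% of all genes. At an unadjusted p under 0.05 in the limma fit, 1 rose and 3 fell. The called marker was Cd3d, a chain of the T cell receptor complex, at 1.67 ± 0.36 (adjusted p = 0.0253). Cd3d, Cd3g, Il2rb and Ncr1 summed to 181 to 205 in UNPD, 284 to 494 in RAPD, 156 to 241 in UNTD and 334 to 798 in RATD. Of 12 measured B cell markers 0 rose and 2 fell, beside 3.08% and 2.3% of all genes. Those that fell were Vpreb1 (-1.44 ± 0.19, adjusted p = 0.00277) and Igll1 (-1.10 ± 0.15, adjusted p = 0.00334). They are the parts of the surrogate light chain of early B cells, and Vpreb1 had overlapping TD arrays. Cd79b, Pax5 and Ms4a1 were not called and summed to linear signals of 49.8 to 136 over the 8 arrays. H2-Eb1, a class II antigen presentation gene dim on all untreated arrays, was at least 2.80-fold higher in RAPD and 1.90-fold in RATD (adjusted p = 0.0358). It was the only one called of 14 measured dendritic and antigen presentation markers, beside 3.08% of all genes that rose. The median of that list was -0.06. With an array left out, 1 B cell marker rose without either RATD array, and 1 T or NK cell marker fell without RATD replicate 1. The part of these cells in the shared response was not tested. The markers of maturing neutrophils were Ltf, Camp, Ngp, Lcn2, Mmp8, Mmp9, Cxcr2 and Csf3r. They summed to 84945 to 93569 in UNPD, 136377 to 174007 in RAPD, 58869 to 81767 in UNTD and 113732 to 167620 in RATD. Treated and untreated arrays did not overlap in either subset. Single genes lay apart upwards in both subsets for 6.58% of all tested. Of these 8 markers 6 rose, beside 3.08% of all genes. All 6 were already counted in the granule or mature neutrophil list above, so this is no further result.

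Across all genes the averaged difference was weakly related to gene length (Spearman 0.149 over 14487 genes and 0.286 over the bright ones). This is across genes of the same arrays, and the part of RNA quality in this relation was not tested.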

How the data were processed

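Biotin-labelled cRNA was hybridised to 10 oligonucleotide arrays, and the authors deposited log2 values of MAS5 signals for 45037 probe sets; MAS5, named per the submitters' processing notes with no version, summarises the probes of a set. The log2 scale was read from the values. Arrays give no read depth, and 2 per group limit the precision. Of the probe sets, 34945 had 1 gene symbol, 932 several and 9160 none, and 34741 were matched to the RefSeq gene table of GRCm38.p6. Probe sets above the 40th percentile of their array on at least 2 arrays were kept (32686, 72.6%), and each of 14581 genes was read by its kept probe set with the highest mean. No normalization was added.

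A mean for each of 5 groups was fitted with limma 3.58.1 in R 4.3.3 (intensity trend, two-sided, Benjamini-Hochberg over all genes), and the contrasts were the ATRA difference averaged over PD and TD, in each subset, and between subsets. UNSC arrays entered only the estimate of the spread, and they were the closest pair of any group. Over the bright genes their differences had an SD of 0.158. The SD was 0.256 between the UNTD arrays, 0.305 in UNPD, 0.467 in RATD and 0.503 in RAPD. On the 8 arrays alone 416 genes were called in place of 784, with 4 residual degrees of freedom in place of 5. On simulated data with 200 of 14581 genes changed, 52% of 2-fold and 74% of 8-fold changes were recovered, with 5.97% false calls among all calls. The simulated noise was drawn independently for each gene and array, without deviations that many genes of an array share. The real arrays had such deviations, so these percentages need not hold for them. A dim group was set to the 40th percentile of its arrays for a fold written as "at least".

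Genes were named by this rule: full symbols among those that moved the same way, the 15 largest differences in each direction; measured retinoid genes; anchors of granulocyte differentiation; up to 5 called members of each list by p; and the 5 genes with the smallest p and opposite signs in the subsets. Not every gene so named is printed. The members, lists and rule were chosen with earlier results of these data known. Normalization, filter, probe-set choice, trend, weights, pairing and each array were varied.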

Additional observations from a re-analysis of the deposited data

Results flagged for a closer look

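The ATRA difference in TD minus that in PD was called by limma for 35 genes, and each of the named genes among them is listed because this test of the difference itself passed. The value was negative, with the PD difference above the TD difference, for Fpr2 (-4.60 log2 units), Hacd4 (-3.53), Fcgr4 (-3.25), Klf2 (-3.01), Stfa2l1 (-2.43), Cybb (-2.41), Fgr (-2.41), Dhrs3 (-2.36), Pirb (-2.36), Ifitm6 (-2.30) and Ctsh (-1.80). Of these, Fcgr4, Stfa2l1 and Ifitm6 rose in both subsets. The value was positive for Hdc (3.20), which was higher in RATD than in UNTD, and for Phgdh (2.41) and Vpreb1 (2.12), which were lower in RAPD than in UNPD. It was also positive for Atp8a2 (fitted value 5.09), dim on both UNTD arrays, and for Calhm6 (fitted value 4.40), dim on both RAPD arrays. The fitted values of these last genes rest on signals below the dim level, so that their size is not measured.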

How the results depend on the processing

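Counts are given as called for the averaged difference, moved the same way, called between subsets, called in PD and called in TD, which were 784, 571, 35, 1173 and 42 as reported. With an array left out they ranged from 154 to 2155, 138 to 1943, 3 to 1374, 74 to 2556 and 1 to 856. They were 416, 335, 13, 508 and 10 on 8 arrays, 478, 368, 1, 15 and 2 with the 75th percentile of signal as covariate, and 15, 13, 4, 29 and 1 without the intensity trend. An additive model on 8 arrays called 119 genes, of which 119 moved the same way. With arrays set to a common 75th percentile, 82 were called between subsets, 1842 in PD and 115 in TD; quantile normalization called 75 in TD; no filter called 14 between subsets and 25 in TD; a floor at the 40th percentile called 11 and 27. The replicate number did not pair the arrays (no pair of groups had deviations correlated above 0.1), and as a replicate block it gave 611, 464, 20, 781 and 32. UNPD and RAPD arrays of the same number deviated in opposite ways (-0.50), and with the RAPD numbers crossed in the block, a pairing added after seeing the data, the counts were 975, 641, 53, 1605 and 28. Other counts stayed within 1.5 times of those reported. Of 124 named genes called, 122 stayed called under quantile normalization, 120 at a common 75th percentile, 95 with the covariate, 51 in the additive model and 7 without the trend, and 53 with each array left out in turn. The 5 genes whose sign turned were not called as reported. With an array left out, Rara (0.64) ranged from -0.048 to 1.33, Rarb (1.08) from -0.021 to 2.19, Ctsg (-0.06) from -0.18 to 0.057, with 0.049 without RAPD replicate 1, Csf3r (-0.06) from -0.14 to 0.013, and Cebpd (0.06) from -0.0093 to 0.14. With the covariate Ctsg was 0.060 and Csf3r 0.0087, and as the mean of probe sets Cebpd was -0.15. The median of the chemotaxis list was 0.06 as reported and -0.0085 after quantile normalization. The causes were not tested. With 2 arrays a group, a change that RATD replicate 1 shows weakly can fail the test in TD, and signals below the dim level carry no measured difference.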
